A study of Rattus norvegicus with 74 samples.

Results

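The mitochondrial import genes described here encode the machinery that carries nuclear-encoded proteins into mitochondria. They were chosen by name: protein-coding genes whose symbol begins with Tomm or Timm followed by a digit, together with Samm50, Pam16, Dnlz, Grpel1, Grpel2, Pmpca and Pmpcb. This gave 28 of the 30560 genes in the count tables. Timm13, Timm29, Tomm6 and Tomm20l were not analysed here. The genes were followed in 3 kinds of sample: whole red gastrocnemius (SM), its isolated mitochondria (MT) and left ventricle (LV). The animals were male wild-type Wistar Kyoto rats aged 9 weeks, and all of them, in both arms, drank water with 8% deuterium oxide. Training (ExT) began at 5 weeks of age and lasted 4 weeks, with 60 min of treadmill running at 20 m/min on 5 days of each week. Sedentary rats (Sed) were placed on a stationary treadmill. Dissection followed the final bout by 24 h. SM_Sed, SM_ExT, MT_Sed and MT_ExT held 15 libraries each, and LV_Sed and LV_ExT held 7 each. Each of the 30 rats gave 1 SM and 1 MT library, and 14 of them also gave an LV library. Mitochondria were captured by immunoprecipitation and treated with RNase-A and proteinase-K, so MT is a preparation of mitochondria and not a tissue. Counts on the mitochondrial genome made up 12.9% to 95.4% of an MT library and 22.1% to 35.9% of an SM library. Some MT libraries thus held no larger mitochondrial share than SM libraries.

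Most mitochondrial proteins are made in the cytosol and enter through the TOM complex of the outer membrane, where Tomm20, Tomm22 and Tomm70 act as receptors and Tomm40 forms the channel. Proteins with a cleavable presequence then cross the inner membrane through the TIM23 complex, are pulled inward by a motor built around the mitochondrial Hsp70 and are trimmed by the processing peptidase. Carrier proteins are instead handed by small TIM chaperones to the TIM22 complex, and outer-membrane barrel proteins are inserted by the sorting and assembly machinery around Samm50. Muscle and heart are rich in mitochondria, and their respiratory chain depends on this route.

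An SM library held 19477976 to 39401323 counts in all, an MT library 530397 to 9988027 and an LV library 54645657 to 75758777. Summed over the 28 import genes, a library held 16938 to 37097 counts in SM, 386 to 984 in MT and 63387 to 81111 in LV. SM libraries were made from 50 ng and MT libraries from 10 ng of RNA with the same kit, and LV libraries from 100 ng with another. Sample type therefore cannot be told apart from RNA input, nor, for LV, from the kit. Skeletal muscle markers (7 of 9 listed genes were in the tables) summed to 116451 to 177757 CPM (counts-per-million) of nuclear-encoded counts in SM, 2492 to 3451 in LV and 546 to 2800 in MT. The 9 heart markers summed to 56184 to 67912 in LV and 522 to 4124 in SM. Nppb, a heart marker, was at 0 in 13 of 15 SM_Sed and 15 of 15 SM_ExT libraries, and Myh4, a fast muscle myosin, was at 0 in 4 of 7 LV_Sed and 1 of 7 LV_ExT libraries. The rat numbers were divided here into a range from 2 to 16 (14 rats) and one from 17 to 32 (16 rats), a cut that the sample titles do not mark. Only 2 LV rats came from the range from 2 to 16. In bulk samples, fewer cells of a type and less RNA per cell cannot be told apart.

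As a share of nuclear-encoded counts, the import genes together took 0.0971% to 0.152% in SM_Sed, 0.116% to 0.165% in SM_ExT, 0.189% to 0.207% in LV_Sed and 0.186% to 0.213% in LV_ExT. Every LV library lay above every SM library on this scale, and the arms overlapped within each tissue. Such a share also moves with the most abundant transcripts of a library. Levels below are therefore CPM after TMM scaling, which assumes that most genes do not differ, and differences are log2 fold changes from edgeR's quasi-likelihood test. A gene is called where its Benjamini-Hochberg adjusted p over all genes tested is under 0.05. Levels are not divided by transcript length, so they are compared between samples and not between genes.

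Between ventricle and red gastrocnemius, import genes were called in both directions, in sedentary rats at shares close to those over all genes. In sedentary rats 11 of 27 members tested were called higher in LV and 10 lower, beside 40.0% of all 14367 genes tested called higher and 38.6% called lower. In trained rats 15 of 27 were called higher and 8 lower, beside 39.7% higher and 39.5% lower among 14338 genes. The members' median log2 difference was 0.13 in sedentary and 0.19 in trained rats, against medians over all genes of 0.04 and 0.01. Of the 27 members, 11 were called higher in both arms, 8 lower in both, and 0 in opposite directions. Calls shared by both arms were not counted over all genes. Timm8a2 was not tested here, with at most 5 counts in any SM library and at most 4 in any LV library. The split depends on the scaling. With library totals alone the median over all genes moved to 0.28 and 0.21, and 16 members were called higher and 6 lower in each arm. Over all genes that setting called 7226 higher and 4296 lower of 14367 in sedentary rats. In trained rats it called 6811 higher and 4549 lower of 14338. As raw shares of nuclear-encoded counts, 22 of 28 members had the higher median in LV and 6 the lower. That count was not made over all genes, whose protein-coding median was 1.43 CPM of nuclear-encoded counts in SM and 1.95 in LV.

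**Figure D1:**
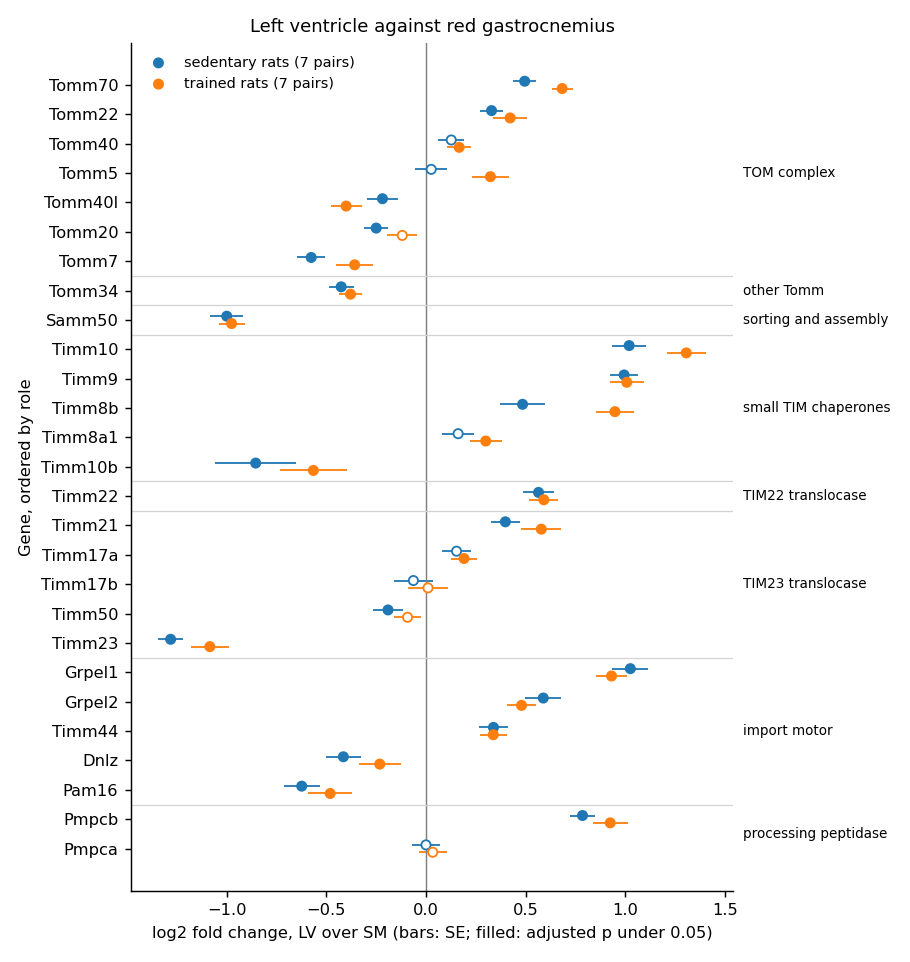
The horizontal axis gives the log2 fold change of 27 import genes between left ventricle and red gastrocnemius after TMM scaling, with genes grouped by role, for 7 sedentary (blue) and 7 trained (orange) rats. Points are fitted values, bars are SE and filled points have an adjusted p under 0.05. Timm10 (1.02 and 1.31) stands near the upper end and Timm23 (-1.28 and -1.08) at the lower end.

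The small TIM chaperones, which shield carrier proteins between the membranes, held the member with the highest value in trained rats. Timm10 (ENSRNOG00000007883) lay at 13.3, 17.6 and 19.7 CPM in SM_Sed and at 30.4, 34.3 and 37.2 in LV_Sed (lowest, median and highest of 7). In trained rats it lay at 12.5, 14.9 and 16.8 CPM in SM_ExT and at 27.5, 37.2 and 45.6 in LV_ExT. No LV library overlapped an SM library in either arm, and the log2 difference was 1.02 ± 0.09 (SE, adjusted p = 1.46e-09) in sedentary and 1.31 ± 0.10 (SE, adjusted p = 2.71e-10) in trained rats. Timm9 (ENSRNOG00000008222), its partner in the chaperone ring, lay at 5.15, 5.68 and 6.40 CPM in SM_Sed and at 10.8, 11.6 and 12.6 in LV_Sed. Its log2 difference was 0.99 ± 0.07 (SE, adjusted p = 1.34e-10) in sedentary and 1.01 ± 0.09 (SE, adjusted p = 2.03e-09) in trained rats, again with no overlap. Timm8b, part of another small chaperone complex, lay at 30.9, 43.9 and 49.5 CPM in SM_Sed and at 45.6, 58.2 and 62.04 in LV_Sed, with overlapping groups and a log2 difference of 0.49 ± 0.11 (SE, adjusted p = 7.49e-04). In trained rats it lay at 25.3, 31.2 and 39.2 CPM in SM_ExT and at 50.6, 59.1 and 69.8 in LV_ExT, with no overlap and a difference of 0.95 ± 0.10 (SE, adjusted p = 3.22e-08). Its related gene Timm8a1 was called in trained rats at 0.30 ± 0.08 (SE, adjusted p = 0.00238), against 0.16 ± 0.08 (SE, adjusted p = 0.0667) in sedentary rats. Timm10b went the other way, at 1.48, 3.02 and 4.67 CPM in SM_Sed and at 1.17, 1.72 and 2.17 in LV_Sed, with a log2 difference of -0.85 ± 0.20 (SE, adjusted p = 8.29e-04) and overlapping groups in both arms. The carrier channel Timm22 was higher in LV without overlap, at 13.8, 15.4 and 20.2 CPM in SM_Sed and at 22.1, 24.1 and 25.1 in LV_Sed. Its log2 differences were 0.57 ± 0.08 (SE, adjusted p = 2.10e-06) and 0.59 ± 0.07 (SE, adjusted p = 3.22e-07).

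In the presequence translocase the channel subunit Timm23 (ENSRNOG00000019811) was lower in LV. It lay at 115, 118 and 143 CPM in SM_Sed and at 45.7, 50.3 and 53.4 in LV_Sed. In trained rats it lay at 96.7, 103 and 147 CPM in SM_ExT and at 42.9, 54.9 and 58.9 in LV_ExT. Every LV library was below every SM library, with log2 differences of -1.28 ± 0.06 (SE, adjusted p = 2.75e-13) and -1.08 ± 0.10 (SE, adjusted p = 4.34e-09). The RefSeq table of rat genes lists 8 pseudogenes named after Timm23, so reads may be shared between copies and its value is uncertain. Timm21, which links the complex to TOM, was higher in LV by 0.40 ± 0.07 (SE, adjusted p = 5.38e-05) in sedentary and 0.58 ± 0.10 (SE, adjusted p = 3.16e-05) in trained rats. Timm17a, the partner of Timm23 in the channel, lay at 72.98, 77.9 and 95.8 CPM in SM_Sed and at 82.9, 92.1 and 97.98 in LV_Sed, with log2 differences of 0.15 ± 0.07 (SE, adjusted p = 0.0558) and, called in trained rats, 0.19 ± 0.07 (SE, adjusted p = 0.0128). Timm17b, the second form of Timm17, lay at 4.93, 6.22 and 7.82 CPM in SM_Sed and at 5.87, 6.19 and 6.92 in LV_Sed and was called in neither arm (log2 differences of -0.06 ± 0.10 and 0.01 ± 0.10, SE). The receptor subunit Timm50 lay at 24.2, 26.9 and 32.6 CPM in SM_Sed and at 21.1, 25.1 and 26.3 in LV_Sed. It was called lower in sedentary rats at -0.19 ± 0.07 (SE, adjusted p = 0.0235) and not called in trained rats at -0.09 ± 0.07 (SE, adjusted p = 0.211), and with library totals alone it was above 0 in both arms.

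In the import motor, Grpel1 (ENSRNOG00000006593), the nucleotide exchange factor of mitochondrial Hsp70, lay at 22.7, 26.1 and 33.7 CPM in SM_Sed and at 48.5, 56.5 and 62.1 in LV_Sed. In trained rats it lay at 26.5, 29.5 and 36.96 CPM in SM_ExT and at 51.1, 57.7 and 68.3 in LV_ExT. The groups did not overlap in either arm, and the log2 differences were 1.03 ± 0.09 (SE, adjusted p = 2.88e-09) and 0.93 ± 0.08 (SE, adjusted p = 1.97e-09). Grpel2, the second form of this factor, lay at 7.07, 9.56 and 12.5 CPM in SM_Sed and at 13.8, 14.5 and 15.8 in LV_Sed, without overlap, with log2 differences of 0.59 ± 0.09 (SE, adjusted p = 6.64e-06) and 0.48 ± 0.07 (SE, adjusted p = 4.48e-06). Timm44, which tethers Hsp70 at the channel, lay at 47.1, 49.03 and 59.6 CPM in SM_Sed and at 53.9, 64.8 and 73.3 in LV_Sed. Its groups overlapped, and its log2 differences were 0.34 ± 0.07 (SE, adjusted p = 2.50e-04) and 0.34 ± 0.07 (SE, adjusted p = 1.59e-04). Pam16, a J-like regulator of the motor, was lower in LV, at 19.8, 24.00 and 28.6 CPM in SM_Sed and at 13.5, 15.8 and 17.6 in LV_Sed, without overlap in sedentary and with overlap in trained rats. Its log2 differences were -0.62 ± 0.09 (SE, adjusted p = 3.07e-06) and -0.48 ± 0.11 (SE, adjusted p = 5.99e-04). Dnlz, a chaperone of mitochondrial Hsp70, was also lower, at -0.41 ± 0.09 (SE, adjusted p = 2.50e-04) and -0.23 ± 0.10 (SE, adjusted p = 0.0489). The direction for Dnlz depended on the scale. With both arms pooled, its median share of nuclear-encoded counts was higher in LV, at 15.6 CPM against 14.6 in SM.

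After TMM scaling, the processing peptidase divided between its subunits. Pmpcb, the catalytic subunit, lay at 47.8, 54.05 and 59.2 CPM in SM_Sed and at 82.5, 91.5 and 101 in LV_Sed, with no overlap in either arm and log2 differences of 0.79 ± 0.06 (SE, adjusted p = 6.82e-10) and 0.93 ± 0.09 (SE, adjusted p = 8.80e-09). Pmpca, the other subunit, lay at 37.95, 42.5 and 45.1 CPM in SM_Sed and at 36.4, 39.5 and 47.9 in LV_Sed and was called in neither arm (log2 differences of 0.00 ± 0.07 and 0.03 ± 0.07, SE). The split depended on the scale. With both arms pooled, the median share of nuclear-encoded counts was higher in LV for both subunits. It was 82.3 CPM against 57.2 in SM for Pmpca, and 186.6 against 72.9 for Pmpcb.

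At the outer membrane, Samm50 (ENSRNOG00000011952), the core of the sorting and assembly machinery, was lower in LV. It lay at 112, 126 and 155 CPM in SM_Sed and at 54.2, 62.6 and 73.3 in LV_Sed. In trained rats it lay at 128, 140.4 and 153 CPM in SM_ExT and at 61.7, 71.5 and 79.6 in LV_ExT. The groups did not overlap, and the log2 differences were -0.9997 ± 0.08 (SE, adjusted p = 1.21e-09) and -0.98 ± 0.07 (SE, adjusted p = 4.86e-11). The receptors of the TOM complex did not move together. Tomm70 lay at 48.8, 52.6 and 56.9 CPM in SM_Sed and at 65.8, 75.6 and 81.7 in LV_Sed, without overlap, and was higher by 0.50 ± 0.06 (SE, adjusted p = 1.67e-07) and 0.68 ± 0.05 (SE, adjusted p = 3.71e-10). Tomm22 lay at 32.2, 37.7 and 40.1 CPM in SM_Sed and at 43.8, 44.98 and 48.99 in LV_Sed and was higher by 0.33 ± 0.06 (SE, adjusted p = 2.98e-05) and 0.42 ± 0.08 (SE, adjusted p = 1.31e-04), with overlap in trained rats. Tomm20 lay at 56.6, 67.7 and 76.1 CPM in SM_Sed and at 54.3, 56.4 and 59.2 in LV_Sed, with overlap. It was called lower in sedentary rats at -0.25 ± 0.06 (SE, adjusted p = 0.00105) and not called in trained rats at -0.12 ± 0.08 (SE, adjusted p = 0.16), where library totals alone gave a value above 0. The channel Tomm40 lay at 22.98, 28.4 and 30.96 CPM in SM_Sed and at 28.9, 30.3 and 32.2 in LV_Sed, with log2 differences of 0.13 ± 0.07 (SE, adjusted p = 0.0824) and, called in trained rats, 0.17 ± 0.06 (SE, adjusted p = 0.019). Its second form Tomm40l was lower in LV, at -0.22 ± 0.08 (SE, adjusted p = 0.0142) and -0.40 ± 0.08 (SE, adjusted p = 1.02e-04). The direction for Tomm40l depended on the scale. With both arms pooled, its median share of nuclear-encoded counts was higher in LV, at 31.4 CPM against 27.4 in SM.

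Among the small TOM subunits, Tomm7 was lower in LV at -0.58 ± 0.07 (SE, adjusted p = 3.63e-07) and -0.36 ± 0.09 (SE, adjusted p = 0.00178), and Tomm5 was called higher in trained rats only, at 0.32 ± 0.09 (SE, adjusted p = 0.00312) against 0.03 ± 0.08 (SE, adjusted p = 0.767). The size for Tomm7 depended on the scale, as its median share of nuclear-encoded counts, both arms pooled, was 45.6 CPM in LV against 47.6 in SM. Tomm34, a cytosolic cochaperone, was lower without overlap at -0.43 ± 0.06 (SE, adjusted p = 4.42e-06) and -0.38 ± 0.06 (SE, adjusted p = 8.78e-06). Its direction depended on the scale. With both arms pooled, its median share of nuclear-encoded counts was higher in LV, at 25.6 CPM against 23.3 in SM. A call in 1 arm only does not show a difference between arms, which was tested as an interaction and called for 0 of 27 members. RefSeq lists pseudogenes named after 10 of the 28 members, among them 4 for Tomm7 and 2 each for Tomm20, Timm8a1 and Pmpcb, whose values carry the same uncertainty as that of Timm23.

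Of 23 other genes of import and protein folding, 10 were called higher in LV and 6 lower in sedentary rats (median log2 difference 0.14), and 12 higher and 7 lower in trained rats (median 0.23). Hspd1, the barrel of the mitochondrial folding chamber, was higher by 1.27 ± 0.08 (SE, adjusted p = 1.50e-11) in sedentary rats, whereas its lid Hspe1 was at -1.12 ± 0.10 (SE, adjusted p = 2.33e-09). Mtx2, a partner of Samm50, was at 1.05 ± 0.07 (SE, adjusted p = 2.82e-11), and Romo1, a small inner-membrane protein, was at -2.12 ± 0.10 (SE, adjusted p = 2.47e-13). Among 6 nuclear-encoded genes taken as a gauge of mitochondrial content (Cs, Vdac1, Sdha, Uqcrc2, Atp5f1a and Cox4i1), 2 were called higher and 1 lower in each arm, with medians of 0.12 and 0.10.

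The promoters of 3 members that were higher in LV and 2 that were lower are shown because these genes had log2 differences of about 1 or more in size. They are RefSeq sequences on build GRCr8, 300 bases each, from 250 before to 50 after the start of the gene, written 5′ to 3′ along the gene. Capitals mark matches on either strand to 3 short motifs known as targets of regulators of mitochondrial genes. These were GCGC, any 2 bases and GCGC again (NRF1), CCGGAAG (ETS factors such as GABP) and AAGGTCA (the ERR receptors), and the last pair can overlap. Grpel1 lies at chr14:78522819-78523118 (minus strand), Timm10 at chr3:90314889-90315188 (plus strand), Timm9 at chr6:95358846-95359145 (minus strand), Timm23 at chr16:7442570-7442869 (minus strand) and Samm50 at chr7:117197210-117197509 (plus strand).
Grpel1: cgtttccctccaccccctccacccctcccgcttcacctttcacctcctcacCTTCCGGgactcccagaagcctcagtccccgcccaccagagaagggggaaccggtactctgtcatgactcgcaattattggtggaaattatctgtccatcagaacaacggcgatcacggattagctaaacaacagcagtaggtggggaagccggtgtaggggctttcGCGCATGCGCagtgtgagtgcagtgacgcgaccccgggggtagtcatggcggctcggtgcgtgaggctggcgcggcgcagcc
Timm10: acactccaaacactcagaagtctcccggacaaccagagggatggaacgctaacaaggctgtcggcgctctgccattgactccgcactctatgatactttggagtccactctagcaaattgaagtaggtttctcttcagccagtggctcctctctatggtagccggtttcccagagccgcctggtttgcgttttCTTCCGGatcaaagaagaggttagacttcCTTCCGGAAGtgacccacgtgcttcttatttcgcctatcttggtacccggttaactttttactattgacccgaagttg
Timm9: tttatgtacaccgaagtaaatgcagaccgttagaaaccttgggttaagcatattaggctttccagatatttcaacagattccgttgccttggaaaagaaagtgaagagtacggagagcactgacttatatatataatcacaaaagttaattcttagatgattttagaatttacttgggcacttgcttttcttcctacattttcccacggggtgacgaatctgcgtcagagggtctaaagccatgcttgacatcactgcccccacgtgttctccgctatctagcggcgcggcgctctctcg
Timm23: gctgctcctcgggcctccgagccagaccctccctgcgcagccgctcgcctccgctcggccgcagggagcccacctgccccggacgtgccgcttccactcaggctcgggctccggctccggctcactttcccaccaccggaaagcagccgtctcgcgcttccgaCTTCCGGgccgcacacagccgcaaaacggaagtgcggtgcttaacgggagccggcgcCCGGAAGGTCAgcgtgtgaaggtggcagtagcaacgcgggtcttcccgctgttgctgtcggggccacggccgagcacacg
Samm50: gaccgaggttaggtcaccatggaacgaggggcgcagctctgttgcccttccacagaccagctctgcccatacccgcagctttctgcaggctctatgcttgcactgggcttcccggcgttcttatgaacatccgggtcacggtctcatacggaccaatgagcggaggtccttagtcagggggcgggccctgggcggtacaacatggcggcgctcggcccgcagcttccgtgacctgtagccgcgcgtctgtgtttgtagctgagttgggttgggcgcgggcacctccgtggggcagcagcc
Grpel1 held 1 NRF1-type and 1 ETS-type match, Timm10 held 3 ETS-type matches, and Timm23 held 2 ETS-type matches and 1 ERR-type match that overlaps one of them. Timm9 and Samm50 held 0 matches. Genes with and without matches thus stood on both sides of the LV to SM comparison. Of the 27 members found by symbol (Tomm34 was not), 6 or 22.2% held the NRF1-type motif, against 5.58% of all 33469 promoters of the same length. The ETS-type motif was in 13 or 48.1%, against 8.75%, and the ERR-type motif in 3 or 11.1%, against 4.61%. The members' promoters had a median GC content of 57.0% (43.7% to 78.7%), against 51.7% over all promoters, and these shares were not adjusted for it. Each member entered with 1 promoter and is protein-coding. The full set was limited neither to 1 promoter per gene nor to protein-coding genes, so the sets are unlike. A match is a description of the letters and not of binding.

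Between trained and sedentary rats, no import gene passed the test in muscle or in heart. In SM, edgeR called 0 of 27 members tested, beside 0.206% of 13570 genes, and DESeq2 called 0. At an unadjusted p under 0.05 there were 6 members, beside 1860 of all genes. In LV, edgeR called 0 of 27, beside 0.0% of 14488 genes, and DESeq2 called 0, with 1 member at an unadjusted p under 0.05 in edgeR, beside 855 of all genes. The members' median log2 difference was -0.0046 in SM, from -0.20 to 0.22, and 0.05 in LV, from -0.09 to 0.17. The SE of a member ran from 0.04 to 0.14 in SM and from 0.04 to 0.15 in LV. Trained and sedentary libraries overlapped for 27 of 27 members in both tissues. Overlap was not counted over all genes, so this is no trait particular to the members.

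**Figure D2:**
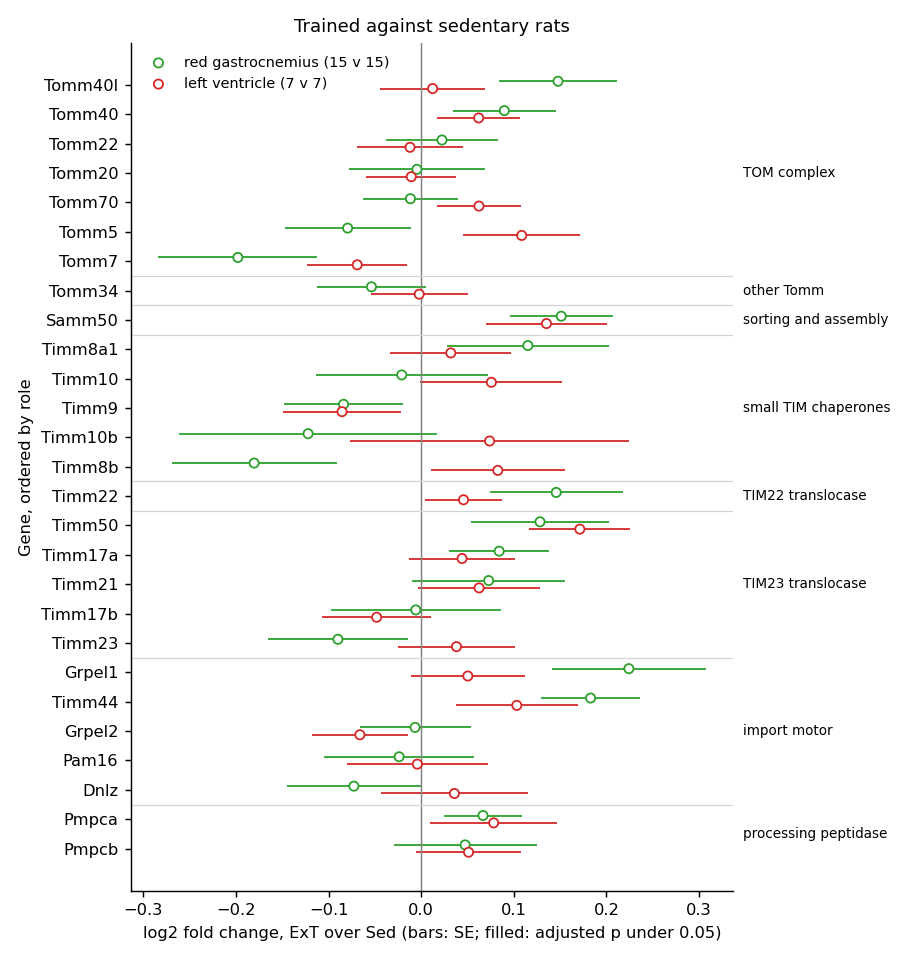
The horizontal axis gives the log2 fold change between trained and sedentary rats for 27 import genes grouped by role, in red gastrocnemius (green, 15 against 15 libraries) and left ventricle (red, 7 against 7), with SE as bars. All points are open, which marks an adjusted p of 0.05 or more, and they lie between -0.20 and 0.22.

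The members at the ends of this range, chosen after their values were seen, were the following. Grpel1 lay at 16.6, 22.4 and 31.8 CPM in SM_Sed and at 21.1, 27.3 and 34.1 in SM_ExT (lowest, median and highest of 15), a log2 difference of 0.22 ± 0.08 (SE, adjusted p = 0.223). Timm44 lay at 33.8, 45.7 and 56.2 CPM in SM_Sed and at 42.5, 50.9 and 57.98 in SM_ExT, a difference of 0.18 ± 0.05 (SE, adjusted p = 0.129). Samm50 lay at 92.9, 108 and 147 CPM in SM_Sed and at 107, 125 and 142 in SM_ExT, a difference of 0.15 ± 0.06 (SE, adjusted p = 0.222). These medians were higher in the trained arm within ranges that overlapped widely. Tomm7 lay at 27.6, 34.6 and 46.01 CPM in SM_Sed and at 20.8, 30.9 and 43.98 in SM_ExT, a difference of -0.20 ± 0.09 (SE, adjusted p = 0.305). Timm8b lay at 27.98, 36.4 and 46.97 CPM in SM_Sed and at 23.4, 31.2 and 40.9 in SM_ExT, a difference of -0.18 ± 0.09 (SE, adjusted p = 0.367). In LV, Timm50 lay at 23.2, 26.7 and 28.7 CPM in LV_Sed and at 26.7, 29.7 and 32.6 in LV_ExT, a difference of 0.17 ± 0.05 (SE, adjusted p = 0.804), and was the member with an unadjusted p under 0.05. Of the 23 other import and folding genes 0 were called in SM (median 0.02), and of the 6 content genes 0 were called, with 6 of 6 values above 0 (median 0.12).

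The 2 ranges of rat numbers gave different values in SM. In rats 2 to 16 the members' median was 0.15, or 0.15 relative to the median over all genes, and in rats 17 to 32 it was -0.08, or -0.07. In rats 2 to 16 Timm44 was called, at 0.29 (edgeR, adjusted p = 0.0412), as 1 of 27 members beside 2.95% of all genes tested there. In rats 17 to 32 Timm44 was at 0.10 (edgeR, adjusted p = 0.853). Grpel1 was at 0.36 and 0.13, and Timm8b at 0.01 and -0.35. The difference between ranges was not tested.

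The summed share of the import genes varied between muscles in both arms. Over the 30 SM libraries their summed share ran from 0.0971% in rat 8 of SM_Sed to 0.165% in rat 5 of SM_ExT. Rat 8 also had the lowest share of counts on the mitochondrial genome, 22.1%, and rat 5 stood near the top at 35.9%. As a description, these shares had Pearson r = 0.88 and a Spearman correlation of 0.86 over 30 libraries, and r = 0.83 without the 2 libraries farthest from the median of the mitochondrial share. The value of r was 0.87 in SM_Sed and 0.88 in SM_ExT (15 each), and 0.92 in each range of rat numbers (14 and 16). The summed share of the 23 other import and folding genes gave r = 0.95 with that of the import genes, that of the 6 content genes gave r = 0.87, and that of the skeletal marker list gave r = -0.68. The shares come from the same libraries, and those of nuclear genes have the same denominator, so the points share depth and composition.

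**Figure D3:**
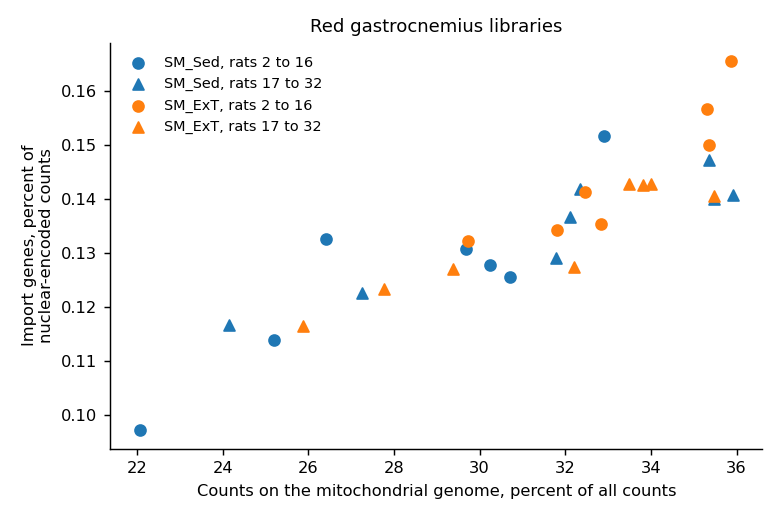
Each point is 1 of 30 red gastrocnemius libraries, with its percent of counts on the mitochondrial genome on the horizontal axis and the import genes' summed percent of nuclear-encoded counts on the vertical axis. Blue is sedentary and orange trained, circles are rats 2 to 16 and triangles rats 17 to 32. SM_Sed runs from 0.0971% to 0.152% and SM_ExT from 0.116% to 0.165%, and in both arms the libraries with more mitochondrial counts lie higher.

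Single members followed the mitochondrial-genome share to different degrees. The Spearman correlation was above 0 for 27 of 27 members with at least 10 counts in every SM library and at least 0.5 for 18 of them. Among 11668 nuclear protein-coding genes with the same minimum, 76.7% were above 0 and 18.97% reached 0.5. Tomm70 (0.83), Timm8a1 (0.82), Tomm22 (0.80) and Timm21 (0.79) had the highest values. Tomm7 (0.19), Dnlz (0.25), Timm10b (0.29) and Timm9 (0.29) had the lowest.

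Whether training moved heart and muscle differently was tested as an interaction in the 14 rats with both tissues. Both edgeR and DESeq2 called 0 of 27 members, beside 0.0% of 15049 genes in edgeR, and 4 had an unadjusted p under 0.05 in edgeR, beside 687 of all genes. The members' median was 0.12 against 0.01 over all genes, where a value above 0 means a training difference more positive in LV than in SM. With library totals alone the medians were 0.06 and -0.05. Timm8b had the highest, at 0.48 ± 0.16 (SE, adjusted p = 1.0), followed by Tomm5 at 0.32 ± 0.13 (SE, adjusted p = 1.0).

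Several subunits exist as pairs of related genes, and the ratio within a pair needs no scaling between libraries. The log2 ratio of counts was compared for 4 pairs, between arms within SM and within LV and between LV and SM within each arm, in 16 two-sided permutation tests adjusted together. The adjusted p was under 0.05 in 7 of them. LV and SM of the same rat were compared as pairs, for which 7 rats allow no p below 0.0156. Grpel1 over Grpel2 lay at 1.23, 1.45 and 1.72 in SM_Sed and at 1.79, 1.95 and 2.10 in LV_Sed of the 7 rats. It was higher in LV in 7 of 7 sedentary rats by 0.43 and in 7 of 7 trained rats by 0.45 (exact paired permutation test, p = 0.0156 and adjusted p = 0.0375 in each arm). Tomm40 over Tomm40l lay at 0.22, 0.64 and 0.82 in SM_Sed and at 0.74, 0.94 and 1.07 in LV_Sed. It was higher in LV in 7 of 7 sedentary rats by 0.35 and in 7 of 7 trained rats by 0.56 (exact paired permutation test, adjusted p = 0.0375 in each arm). Timm8a1 over Timm8b was lower in LV in 7 of 7 trained rats, with a difference of -0.66 (exact paired permutation test, adjusted p = 0.0375). In sedentary rats it was lower in 6 of 7, with a difference of -0.33 (exact paired permutation test, adjusted p = 0.0625). Timm17a over Timm17b passed in 0 of its 4 comparisons, with differences of 0.21 in sedentary and 0.16 in trained rats between LV and SM.

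Both the Timm8a1 and the Grpel1 ratio also differed between arms in SM. Timm8a1 over Timm8b lay at -1.64, -1.10 and -0.21 in SM_Sed and at -0.97, -0.72 and -0.30 in SM_ExT, a difference of 0.32 (permutation test, p = 0.00707, adjusted p = 0.0375). Grpel1 over Grpel2 lay at 0.68, 1.43 and 1.72 in SM_Sed and at 1.25, 1.61 and 1.86 in SM_ExT, a difference of 0.24 (permutation test, p = 0.0164, adjusted p = 0.0375). The arms overlapped in both ratios. Within rats 2 to 16 the differences were 0.40 and 0.42 (exact permutation test, adjusted p = 0.0357 for each). Within rats 17 to 32 they were 0.25 and 0.07 (exact permutation test, adjusted p = 0.18 and 0.363). For rats 2 to 16 the tests with LV kept their p values from all rats in the adjustment. For rats 17 to 32 all 16 tests were recomputed, so the adjusted p values of the 2 ranges are not directly comparable. Leaving out 1 library at a time kept Timm8a1 over Timm8b at an adjusted p of 0.0102 to 0.0375. In these runs all other tests kept their p values, which limits how far the adjusted p can move. For Grpel1 over Grpel2 the adjusted p reached 0.0511 to 0.0625 in 14 of 30 cases. These were without rat 4, 7, 8, 12, 15 or 16 of SM_Sed or without rat 5, 6, 14, 17, 18, 21, 22 or 27 of SM_ExT. In LV the differences between arms were -0.06 for Timm8a1 over Timm8b and 0.12 for Grpel1 over Grpel2 (exact permutation test, adjusted p = 0.354 and 0.136).

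**Figure D4:**
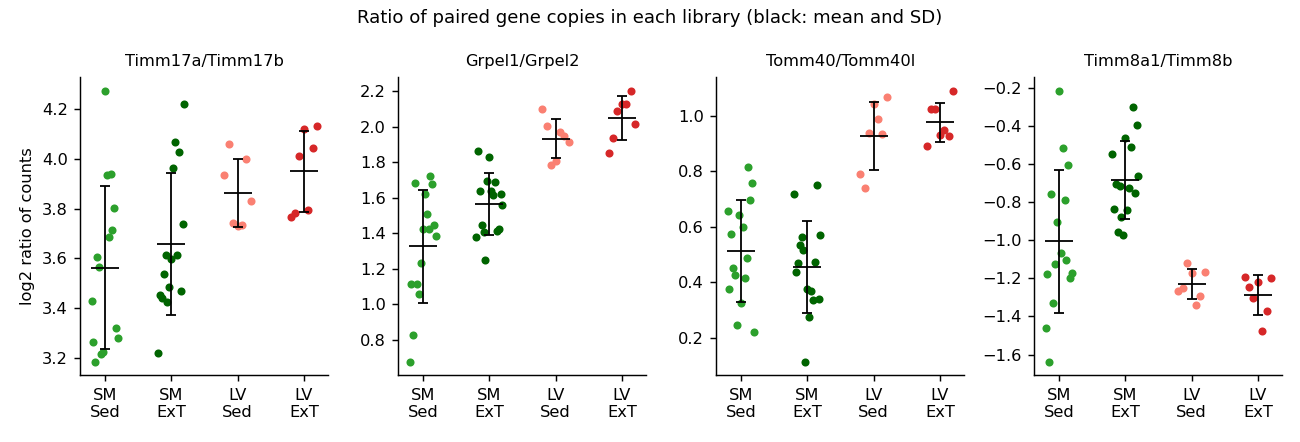
The vertical axis gives the log2 ratio of counts of 4 pairs of related import genes in each SM and LV library, with the mean and SD of each group in black. In sedentary rats Grpel1 over Grpel2 lies at 1.79, 1.95 and 2.10 (lowest, median and highest) in LV, and Timm8a1 over Timm8b in SM runs from -1.64 to -0.21 in sedentary and -0.97 to -0.30 in trained rats.

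In isolated mitochondria the import transcripts had low counts, with a median of 7 to 51 counts per member in each arm. Timm23 lay at 7, 17 and 32 counts in MT_Sed and at 2456, 3227 and 4066 in SM_Sed. Grpel2 lay at 27, 50 and 84 counts in MT_Sed and at 158, 248 and 355 in SM_Sed. In the fit, 25 of 28 members were called lower and 2 higher in MT_Sed than in SM_Sed, beside 33.1% lower and 61.7% higher among 22842 genes. In trained rats 26 were called lower and 2 higher, beside 35.0% and 59.3% of 21312 genes. The direction depends on the scale. The median log2 difference over all genes was 1.81 in sedentary and 1.31 in trained rats, and the members' median was -2.46 and -2.53, or -4.27 and -3.84 relative to those. With library totals alone 16 members were called lower and 4 higher in each arm. Over all genes that setting called 2811 lower and 17616 higher of 22842 in sedentary rats. In trained rats it called 2458 lower and 15734 higher of 21312. As shares of nuclear-encoded counts, 17 of 28 members had a lower median in MT than in SM and 11 a higher one. That count was not made over all genes, but the median protein-coding gene lay at 1.43 CPM of nuclear-encoded counts in SM and 30.2 in MT.

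The lowest log2 differences between MT and SM were in members of several roles. Timm23 differed by -4.99 ± 0.12 (SE, adjusted p = 3.81e-37) in sedentary rats, Timm17a by -4.37 ± 0.12 (SE, adjusted p = 1.01e-34) and Timm8b by -4.37 ± 0.13 (SE, adjusted p = 1.74e-33). Tomm7, Tomm20 and Samm50 followed at -4.03, -3.62 and -3.55. In trained rats these 6 genes ran from -4.84 for Timm23 to -3.48 for Tomm20. The 6 content genes were called lower in 6 of 6 cases, with medians of -5.86 and -5.92, and the other import and folding genes in 22 of 23, with medians of -2.30 and -2.49. Grpel2 was called higher at 0.29 ± 0.09 (SE, adjusted p = 0.00285) and 0.35 ± 0.08 (SE, adjusted p = 4.22e-05), with overlapping groups and 13 and 14 of 15 rats higher in MT. Timm8a2, a close copy of Timm8a1, lay at 4, 11 and 23 counts in MT_Sed and 5, 12 and 18 in MT_ExT, and at 0, 1 and 2 in SM_Sed and 0, 0 and 5 in SM_ExT. It is 1 of the 2 members called higher in MT in each arm, but it passed the count filter only through its MT libraries. Its direction was thus set by the filter, and the call is no evidence of a difference. No fold or p is given because SM had medians of 1 and 0 counts.

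As a gauge of the MT scale, the members were set beside 145 vomeronasal receptor genes, which serve scent detection in the nose. These had medians of 0 in SM and LV and a median of 16.8 CPM of nuclear-encoded counts in MT (quartiles 11 and 23.7). The import genes' own medians in MT ran from 10.2 to 70.4. Of the 28 members, 13 lay within those quartiles, 14 above and 1 below. Timm8a2, called higher in MT than in SM, had a median of 16.9 in MT, at the level of the receptor genes. All 23083 protein-coding genes had a median of 30.2 in MT (quartiles 13.8 and 51.2), above the members' median of 24.3. Among markers of other cells, the 3 adipocyte genes summed to 55.7 to 146 on this scale in MT and 0.0960 to 26.5 in SM. The 4 immune genes summed to 197 to 289 in MT and 47.2 to 143 in SM. Other lists had lower medians of their sums in MT than in SM. The 4 endothelial genes summed to 289 to 431 in MT and 311 to 758 in SM. The 4 fibroblast genes summed to 363 to 6587 in MT and 2510 to 11274 in SM. The 9 heart markers summed to 320 to 471 in MT and 522 to 4124 in SM. Single genes of a list differed in direction between MT_Sed and SM_Sed. Of the heart markers, Myl2, Myl3 (36.9 against 1129) and Actc1 had lower medians in MT_Sed. Myh6 (139.6 against 9.55), Tnnt2, Tnni3, Nppa, Nppb and Myl7 had higher ones. The endothelial genes Kdr and Tek and the fibroblast gene Pdgfra were also higher by median in MT_Sed, and the immune gene Lyz2 was lower (19.6 against 40.3). The part of other cells in the members' values was not tested. Rat 15 of MT_Sed and rats 2 and 27 of MT_ExT had the highest muscle marker sums in MT, and without these 3 libraries 25 members were called lower and 2 higher in sedentary rats and 26 and 2 in trained rats. Over all genes, 7678 were then called lower and 16025 higher of 24949 in sedentary rats. In trained rats these were 7636 and 14432 of 23339.

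**Figure D5:**
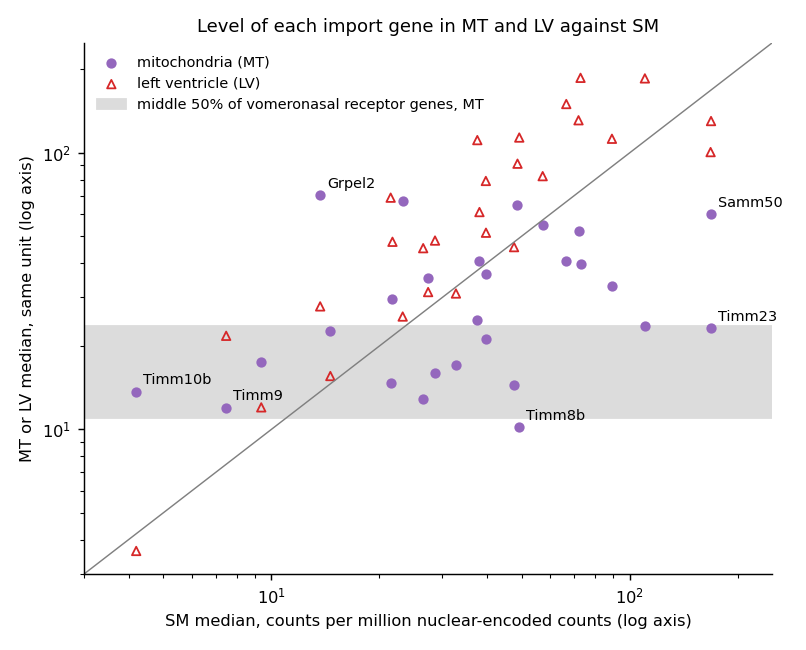
Each point is 1 of 27 import genes (Timm8a2 is left out), with its SM median on the horizontal log axis and its MT (purple) or LV (red) median on the vertical log axis, in CPM of nuclear-encoded counts. The grey band spans the quartiles of 145 vomeronasal receptor genes in MT, 11 to 23.7, and the line marks equal values. MT medians run from 10.2 to 70.4, while SM medians run from 4.20 to 169.

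Between trained and sedentary rats, edgeR and DESeq2 both called 0 of 25 members tested in MT, beside 0.0% of 19281 genes in edgeR, and 1 had an unadjusted p under 0.05 in edgeR, beside 912 of all genes. The member was Timm22, at 0.35 ± 0.14 (SE, adjusted p = 1.0). The members' median was 0.04, from -0.27 to 0.35, with SE from 0.10 to 0.21. In the interaction of training with MT against SM, edgeR and DESeq2 both called 0 of 28 members, beside 0.0181% of 27684 genes in edgeR, and 2 had an unadjusted p under 0.05 in edgeR, beside 2354 of all genes. Grpel1 was at -0.52 ± 0.18 (SE, adjusted p = 0.383) and Pmpca at -0.27 ± 0.13 (SE, adjusted p = 0.571).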

How the data were processed

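RNA was sequenced from 74 rat libraries. The authors deposited raw counts per gene, and the submitters' processing notes name FastQC 0.74, cutadapt 4.6, STAR 2.7.11a, HTSeq and the build mRatBN7.2. The annotation version and strand setting were not given in the sources used here. Counts were tested with edgeR 4.0.16 (quasi-likelihood, TMM, filterByExpr with a minimum of 10, Benjamini-Hochberg over all genes tested) in R 4.3.3, and SE is the log2 fold change over the square root of F. DESeq2 1.42.0 was an alternative. The scripts were tested on simulated data. Ratios used counts plus 0.5 and up to 100000 resamples. Full statistics went to the called members with the largest changes, up to 6 in each direction, and to 18 core members. The members and lists were chosen with earlier results of these data known. Samples share rat numbers because they come from the same animals, and deviations of SM and LV from the same rat had a median correlation of 0.02 (SM and MT 0.0043). Each library is a different rat within its group. Other scalings, filters, rat ranges, thinning and a rat block were also run. Leaving out the 3 MT libraries and 2 SM libraries was chosen after seeing the data.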

Additional observations from a re-analysis of the deposited data

Results flagged for a closer look

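Tomm7, a small subunit of the TOM complex, stood out in 1 LV_ExT library. Rat 25 had 28.5 CPM, the next highest library had 25.2 and the lowest 23.1, so its gap was 0.62 of the whole range of 7 libraries, above the limit of Dixon's test. Chance flags about 1 in 20 groups, and 54 groups were examined.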

How the results depend on the processing

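Of 745 values recomputed under alternatives, 692 were labelled the same. The 663 values of single members got this label where direction and side of the threshold were kept. Counts of calls and medians got it where they moved by less than a set tolerance, so 692 is not a count of kept directions. With rats 2 to 16 only, 1 member was called for training in SM, and Timm8b reversed to 0.0059. With rats 17 to 32 only, Timm8a1 reversed to -0.0915, 0 of 16 ratio tests passed (6 pairs of LV and SM cannot reach the threshold), and Pmpca in LV against SM of sedentary rats was at -0.0319. For Pmpca, whose main value is near 0, RLE size factors gave -0.0192, DESeq2 -0.0193 and nuclear-encoded genes only -0.0013. With library totals alone, LV against SM gave 0.18 for Timm17b and 0.0474 for Timm50 in sedentary rats, and 0.10 for Timm50 and 0.0814 for Tomm20 in trained rats. Thinning to the smallest total left 17 of 20 members called in MT against SM of sedentary rats and 13 of 17 of trained rats, with fewer members tested. Over all genes, thinning called 3481 higher and 2773 lower of 7314 in sedentary rats. In trained rats it called 2180 higher and 1995 lower of 4996. Without rat 8 of SM_Sed and rat 5 of SM_ExT, the training difference of Grpel1 over Grpel2 was 0.18 (permutation test, adjusted p = 0.0962, with the LV tests unchanged). Apart from the thinning, the cause of these changes was not tested. With the rat as a replicate block, 21 members were called in LV against SM of sedentary rats and 22 of trained rats, 27 and 28 in MT against SM, and Pmpca was at -0.0048. Over all genes, the block called 5725 higher and 5449 lower of 14367 in LV against SM of sedentary rats. In trained rats these were 5627 and 5597 of 14338. For MT against SM they were 14083 and 7545 of 22842 in sedentary and 12616 and 7453 of 21312 in trained rats. In MT, 386 to 984 counts over 28 genes limit the precision of each member.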
